A study of Mus musculus with 18 samples.

Results

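The genes described here are 9 transcription regulators that set up the skeletal muscle programme in mouse cells, taken by name from the 48795 gene IDs measured. They are the MyoD family factors Myod1, Myog, Myf5 and Myf6, the MEF2 factors Mef2a, Mef2c and Mef2d, the paired-box factor Pax7 and the co-activator Vgll2. All 9 passed the filter on low counts, which left 15436 genes for testing. The cells were C2C12, a mouse myoblast line, turned into myotubes by 5 days in medium with 2% horse serum and then profiled by poly-A RNA sequencing in 18 libraries, 3 in each of 6 groups. In 3 groups the synthetic glucocorticoid dexamethasone (DEX, 200 µM) was present for the last 24 h, after 12 h of pre-treatment with 0.1% DMSO (DEX alone) or with ginsenoside Rc at 10 µM or 20 µM. Where both were given, ginsenoside Rc was present before and with DEX. The other 3 groups received no DEX and were kept for 36 h with ginsenoside Rc at 10 µM or 20 µM or with 0.1% DMSO (control). Ginsenoside Rc is a triterpenoid saponin of ginseng. The labels record DMSO for the groups without ginsenoside only. C2C12 is 1 immortal line, and no label states that replicates were grown as separate cultures, so the p-values reflect only library-to-library spread, which could be technical.

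MyoD family factors are basic helix-loop-helix proteins that pair with E proteins and bind E-boxes at muscle genes. Myf5 and Myod1 commit cells to the muscle lineage, Myog drives the differentiation of committed myoblasts, and Myf6 (MRF4) is the family member most abundant in adult muscle fibres. MEF2 factors are MADS-box proteins that act with the MyoD family and answer to calcium signals through class II histone deacetylases. Pax7 marks and maintains muscle stem cells, and Vgll2 is a muscle-enriched partner of the TEAD factors. DEX at high dose is a common way to make cultured myotubes atrophy.

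In GRCm38 coordinates, Myf5 (ENSMUSG00000000435, chr10:107482908-107486134, minus strand) and Myf6 (ENSMUSG00000035923, chr10:107492853-107494737, minus strand) are neighbours, 6718 bases apart. Myod1 (ENSMUSG00000009471) lies at chr7:46376474-46379099 on the plus strand and Myog (ENSMUSG00000026459) at chr1:134289989-134292548 on the plus strand. Mef2a (ENSMUSG00000030557, chr7:67231163-67372858, minus strand), Mef2c (ENSMUSG00000005583, chr13:83504034-83667080, plus strand) and Mef2d (ENSMUSG00000001419, chr3:88142372-88172086, plus strand) are long genes with 12, 31 and 7 annotated transcripts. Pax7 (ENSMUSG00000028736) lies at chr4:139737062-139833528 on the minus strand and Vgll2 (ENSMUSG00000049641) at chr10:52022502-52028471 on the plus strand. Mef2a overlaps Lysmd4 on the opposite strand and Gm44667 and Gm44668 on its own strand. Mef2d overlaps the antisense gene 1700113A16Rik. The deposited estimates of Mef2a were not whole numbers in 16 libraries and those of Mef2d in 18, whereas those of the other 7 genes were whole in every library. In RSEM's estimates this happens where reads fit more than 1 gene, so part of the counts of these 2 genes was shared out.

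RefSeq promoter windows (GRCm38.p6, 250 bases before and 50 bases from the annotated start) matched 7 of the 9 genes, with 9 windows in all, and none was matched for Myod1 and Myf6. The windows of the 4 matched genes that passed the test under DEX are shown because they moved in opposite directions, and that of Myog because it is the most abundant of the 9. They are written 5′ to 3′ on the gene's strand, with capitals for E-boxes (CANNTG, searched on both strands) and for the MEF2 site (searched by its consensus).
Myf5, chr10:107486085-107486384, minus strand: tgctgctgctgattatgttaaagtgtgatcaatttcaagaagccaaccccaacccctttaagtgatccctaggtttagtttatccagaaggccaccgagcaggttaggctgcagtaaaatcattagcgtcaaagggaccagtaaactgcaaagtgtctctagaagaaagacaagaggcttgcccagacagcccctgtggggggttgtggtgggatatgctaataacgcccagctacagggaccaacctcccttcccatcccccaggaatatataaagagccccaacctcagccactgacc
Pax7, chr4:139832919-139833218, minus strand: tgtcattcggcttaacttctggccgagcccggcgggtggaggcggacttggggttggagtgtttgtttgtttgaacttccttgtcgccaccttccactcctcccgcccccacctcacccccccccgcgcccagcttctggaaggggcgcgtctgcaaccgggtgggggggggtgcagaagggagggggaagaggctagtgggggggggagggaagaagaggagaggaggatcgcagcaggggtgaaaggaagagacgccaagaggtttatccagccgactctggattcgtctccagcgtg
Vgll2, chr10:52022252-52022551, plus strand: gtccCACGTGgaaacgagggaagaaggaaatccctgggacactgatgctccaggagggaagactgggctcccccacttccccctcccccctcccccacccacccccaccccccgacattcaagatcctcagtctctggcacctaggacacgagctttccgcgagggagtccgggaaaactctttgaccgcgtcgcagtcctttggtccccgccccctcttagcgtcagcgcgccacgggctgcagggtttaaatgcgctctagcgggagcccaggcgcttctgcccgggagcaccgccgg
Mef2a, chr7:67372809-67373108, minus strand: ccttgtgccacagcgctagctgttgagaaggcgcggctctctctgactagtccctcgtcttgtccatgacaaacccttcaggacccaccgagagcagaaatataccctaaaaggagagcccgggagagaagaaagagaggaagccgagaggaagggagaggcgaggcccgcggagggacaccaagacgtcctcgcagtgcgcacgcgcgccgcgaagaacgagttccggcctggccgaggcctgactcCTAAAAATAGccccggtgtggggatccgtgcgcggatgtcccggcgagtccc
Myog, chr1:134289754-134290053, plus strand: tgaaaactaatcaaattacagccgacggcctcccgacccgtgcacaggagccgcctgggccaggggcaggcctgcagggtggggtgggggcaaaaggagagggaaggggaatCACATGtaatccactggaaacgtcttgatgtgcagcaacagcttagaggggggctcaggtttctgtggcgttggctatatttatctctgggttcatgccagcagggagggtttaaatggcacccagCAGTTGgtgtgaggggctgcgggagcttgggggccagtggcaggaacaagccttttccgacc

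Across all 32851 RefSeq windows of this length, 72.3% held a CANNTG E-box and 3.19% held a MEF2 site. The Myog window held the E-boxes CACATG, 138 to 133 bases before the start, and CAGTTG, 12 to 7 bases before it. Vgll2 had CACGTG, 246 to 241 bases before its start, and Mef2a had the MEF2 match CTAAAAATAG across its start. Neither motif was found in the Myf5 and Pax7 windows. The MEF2 search took exact matches to its consensus only, so near matches, in the Myog window among others, are not marked. The full palindromic glucocorticoid response element (searched by its consensus, in 0.00913% of all windows) was in none of these 9. Its 6-base arm AGAACA (either strand, 19% of all windows) was found in 2 of the 3 Mef2c windows and in no other window of the 9 genes, and the TEAD motif CATTCC (either strand, 14.7% of all windows) in 1 Mef2c window only. A match is a run of letters, not a binding site shown here, and a missing match says only that these letters are not in the 300 bases.

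Library totals were 32.4 to 45.4 M expected counts (median 41.5 M), so that even the least abundant of the 9 genes, Myf6, had 75.0 to 609 counts per library. DEX separated the libraries along the first principal component, which held 70.9% of the variance. Replicate 2 of the group with 20 µM ginsenoside Rc alone stood apart on the second (5.37%). Its mitochondrial protein-coding share was 2.56%, against 1.09% to 1.75% in the other 17 libraries. The DEX effects on Mef2c and Vgll2 at 20 µM are given with and without this library. For the other genes the sizes of that effect are given with it only. Summed myotube markers (9 genes, among them Myh3, Acta1 and Ckm) were at 21281 to 23913 CPM (counts scaled to library size) with DEX and 22446 to 24339 CPM without DEX. Summed markers of cycling cells (8 genes) were at 67.4 to 83.3 CPM with DEX and 235 to 267 CPM without it. Of the marker lists for other lineages, fibroblast genes (8, with Tcf21 at 0 in every library) summed to 2911 to 3528 CPM with DEX and 4437 to 5919 CPM without it. Adipocyte genes (8) summed to 108 to 117 CPM with DEX and 58.6 to 70.1 CPM without it. Osteoblast genes (7) summed to 799 to 926 CPM with DEX and 1156 to 1388 CPM without it. The low-count filter was passed by 6 of the 8 fibroblast, 4 of the 8 adipocyte and 5 of the 7 osteoblast genes. The adipocyte genes Adipoq, Plin1, Lep and Cidec were under it. A sum is set mostly by its most abundant genes and does not show single genes that moved apart. With DEX alone against control, 5 of the 9 myotube genes were higher and 2 lower at an adjusted p under 0.05. The counts higher and lower were 2 and 4 for fibroblast, 3 and 1 for adipocyte and 0 and 5 for osteoblast genes. Of all genes, 20.6% were higher and 23.2% lower. The part of these markers in the results below was not tested, and in bulk RNA fewer cells of a type and less RNA per cell cannot be told apart.

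**Figure D1:**
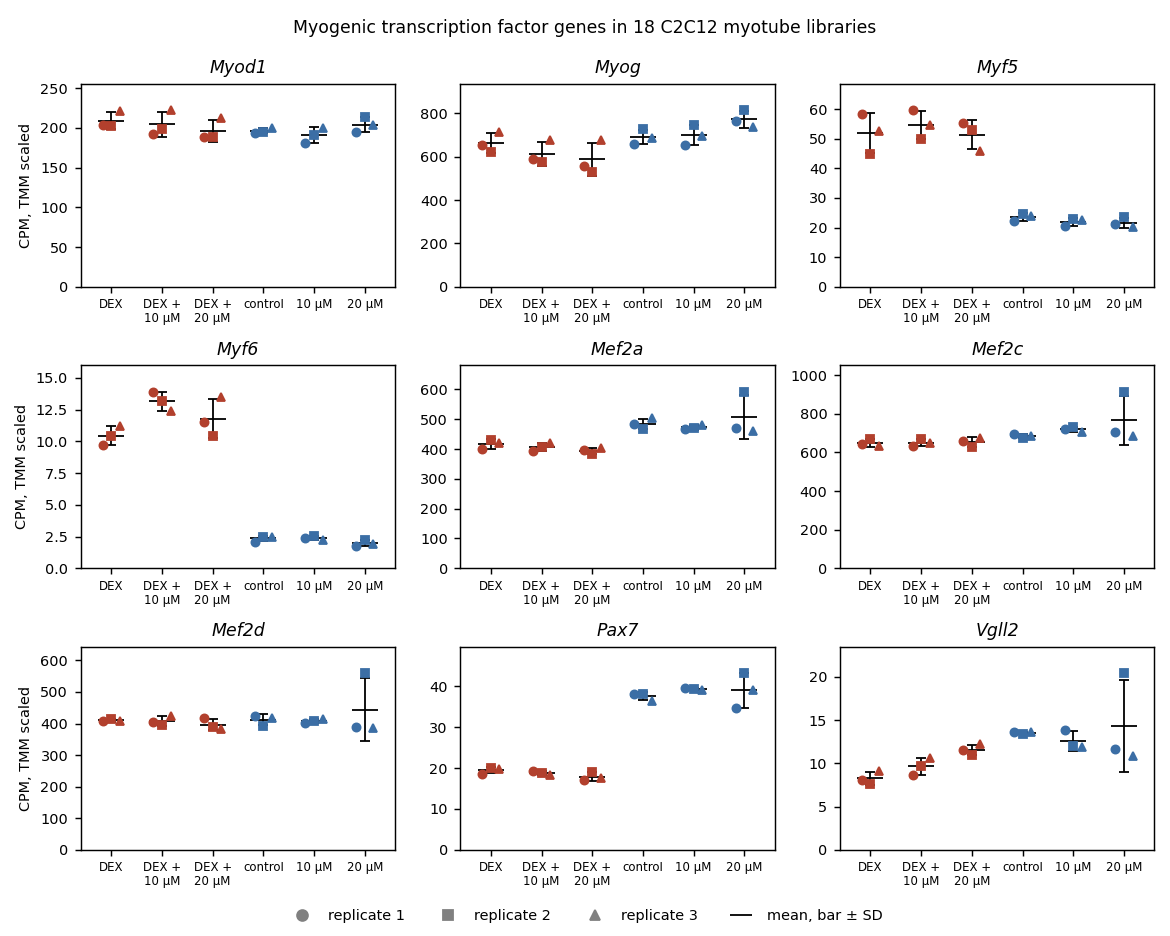
Level of each of the 9 genes in every library (points, a marker shape per replicate, CPM scaled by TMM on an axis from 0) by group, with the mean and SD of 3 libraries in black. The 9 libraries with DEX lie above the 9 without it for Myf5 (44.8 to 59.6 against 20.2 to 24.7 CPM) and Myf6 (9.74 to 13.9 against 1.75 to 2.57 CPM), and below them for Pax7 (17.0 to 20.0 against 34.8 to 43.2 CPM). For comparison, the 3 DEX and 3 control libraries did not overlap for 59.3% of all genes.

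Per kilobase of exon (CPM divided by the length of all exons joined), Myog was the most abundant of the 9 in control myotubes, at 462 CPM per kb, followed by Myod1 at 105, Mef2d at 68.8, Mef2c at 43.7 and Mef2a at 33.0 CPM per kb. Myf5 (11.3), Vgll2 (8.20), Pax7 (6.42) and Myf6 (1.87 CPM per kb) were the least abundant. No neighbours in that order overlapped between the 3 control libraries. With the longest transcript as the length, Mef2c stood at 109 CPM per kb, above Myod1 at 105, so the order among the MEF2 genes and Myod1 depends on the length used. In DEX-treated myotubes Myf5 (24.9 CPM per kb) came next to Mef2a (28.4), with overlapping libraries, and Myf6 (8.27) stood above Vgll2 (5.00) and Pax7 (3.32 CPM per kb), the lowest of the 9 there.

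DEX alone against control asks what the glucocorticoid does to these regulators. It raised the low-abundance MyoD family members Myf5 and Myf6, lowered Pax7 and Vgll2, and lowered Mef2a slightly, while the abundant Myod1 and Myog did not pass the test. At an adjusted p under 0.05 (edgeR's quasi-likelihood test, Benjamini-Hochberg over all 15436 genes), 5 of the 9 passed, 2 higher and 3 lower, where 43.8% of all genes passed (20.6% higher and 23.2% lower). DEX and control libraries did not overlap for 7 of the 9, against 59.3% of all genes. Counts this near the background are not a result about these 9 genes, and the sizes of the changes are given below. The median log2 fold change was -0.06 over the 9 and -0.01 over all genes tested. The effect of DEX was also measured with 10 µM and with 20 µM ginsenoside Rc on both sides, in comparisons that share no library with this one or with each other. At 10 µM, 4 of the 9 passed (44.2% of all genes) and 6 did not overlap (59.7% of all genes). At 20 µM, 6 of the 9 passed (48.9% of all genes) and 6 did not overlap (50.1% of all genes).

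Myf6 had the largest change of the 9. Its levels were 9.74, 10.4 and 11.2 CPM in the DEX libraries, against 2.11, 2.49 and 2.48 CPM in the control libraries. With 10 µM ginsenoside Rc they were 13.9, 13.2 and 12.4 CPM with DEX and 2.36, 2.57 and 2.22 CPM without DEX. With 20 µM they were 11.5, 10.4 and 13.5 CPM with DEX and 1.75, 2.22 and 1.95 CPM without DEX. Every library with DEX was thus well above every library without it. Myf6 rose 4.41-fold with DEX alone (log2 fold change 2.14 ± 0.11 (SE), adjusted p = 3.5e-11), 5.51-fold on 10 µM ginsenoside Rc (2.46 ± 0.11, adjusted p = 4.4e-12) and 5.97-fold on 20 µM (2.58 ± 0.12, adjusted p = 3.3e-12).

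Myf5, the neighbour of Myf6 and an early lineage factor, moved the same way by less. It was at 58.3, 44.8 and 52.6 CPM in the DEX libraries, against 22.2, 24.7 and 23.8 CPM in the control libraries. On 10 µM ginsenoside Rc it was at 59.6, 49.9 and 54.6 CPM with DEX and 20.5, 22.9 and 22.6 CPM without DEX. On 20 µM it was at 55.2, 53.1 and 45.8 CPM with DEX and 21.1, 23.6 and 20.2 CPM without DEX. No library with DEX came near the range of those without it, although the spread between libraries was wider with DEX. The rise was 2.20-fold with DEX alone (log2 fold change 1.14 ± 0.10, adjusted p = 1.9e-08), 2.49-fold on 10 µM (1.31 ± 0.10, adjusted p = 3e-09) and 2.38-fold on 20 µM (1.25 ± 0.10, adjusted p = 5.4e-09).

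Myod1 did not pass the test in any of the 3 DEX comparisons. It was at 204, 202 and 221 CPM in the DEX libraries and 194, 195 and 199.8 CPM in the control libraries, which do not overlap but lie close together (log2 fold change 0.09, 95% interval -0.04 to 0.22, adjusted p = 0.26). Over all 9 libraries each, Myod1 ranged from 188 to 222 CPM with DEX and from 181 to 214 CPM without it.

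Myog, the differentiation factor of the family, passed the test in 1 of the 3 DEX comparisons, that with 20 µM ginsenoside Rc on both sides. It was at 656, 623 and 715 CPM in the DEX libraries and 659, 727 and 688 CPM in the control libraries. With 20 µM ginsenoside Rc it was at 558, 528 and 676 CPM with DEX and 767, 814 and 735 CPM without DEX. The first pair of groups overlaps and the second does not. The log2 fold change was -0.06 with DEX alone (95% interval -0.24 to 0.13, adjusted p = 0.64), -0.19 on 10 µM (-0.37 to -0.01, adjusted p = 0.088) and -0.39 on 20 µM (-0.58 to -0.21, adjusted p = 0.001). The difference between the DEX effects on 20 µM and without ginsenoside was -0.34 (95% interval -0.60 to -0.08) with an adjusted p of 0.88, although the interval lies below 0. The DEX effects on Myog are therefore not shown to differ with the ginsenoside.

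As shares of the summed CPM per kb of the MyoD family, Myog made up 75.3% ± 0.393 in DEX myotubes and 79.6% ± 0.717 in control myotubes (SD, n = 3 each). Myf5 made up 4.22% ± 0.498 with DEX and 1.95% ± 0.0310 in control, and Myf6 made up 1.40% ± 0.0786 with DEX and 0.322% ± 0.0201 in control. The Myod1 share was 19.1% ± 0.465 with DEX and 18.2% ± 0.738 in control, and its DEX libraries (18.8% to 19.6%) all lay above its control libraries (17.3% to 18.7%). Myog and Myod1 thus held most of the family's RNA in both groups, and the shares are relative to one another.

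**Figure D2:**
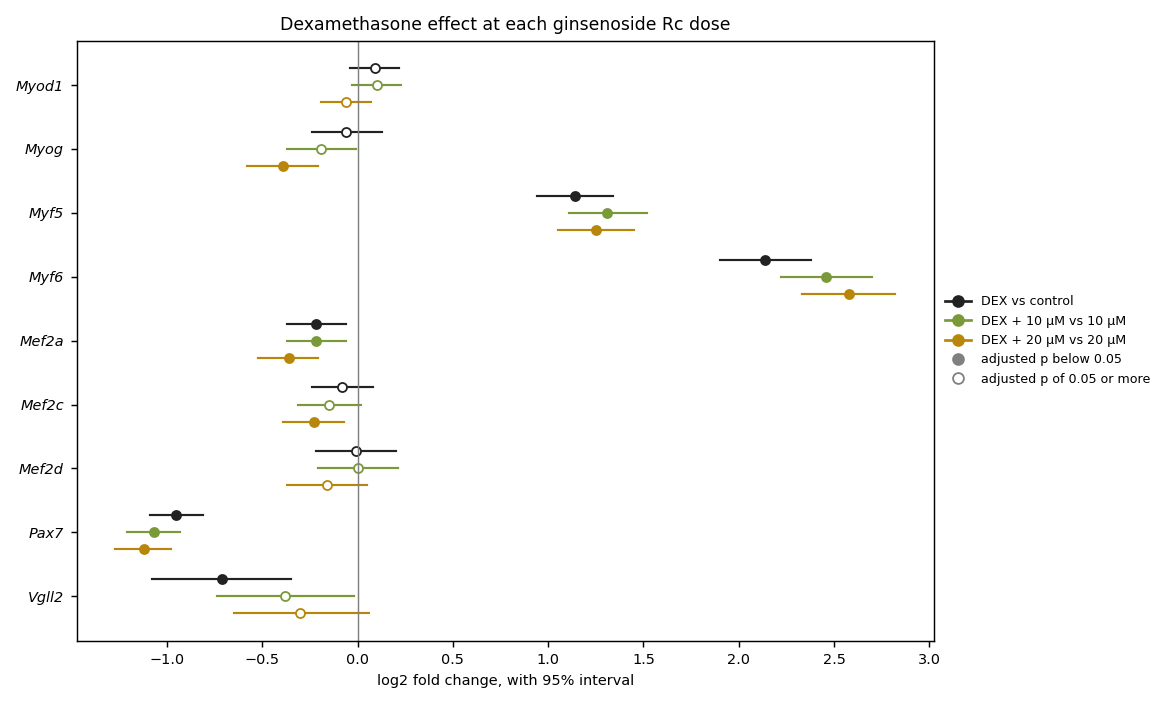
Log2 fold change of DEX for each of the 9 genes (points, with 95% intervals) without ginsenoside Rc and on 10 µM and 20 µM of it, with filled points where the adjusted p was under 0.05. Myf6 (2.14, 2.46 and 2.58) and Myf5 (1.14, 1.31 and 1.25) lie to the right of 0 and Pax7 (-0.95, -1.07 and -1.12) to the left in all 3 comparisons.

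Among the MEF2 factors, Mef2a was lower with DEX in all 3 comparisons, and the size was small. Its levels were 399, 430.4 and 421 CPM in the DEX libraries, against 483, 467 and 503 CPM in the control libraries. On 10 µM ginsenoside Rc they were 394, 406 and 422 CPM with DEX and 466, 472 and 481 CPM without DEX. On 20 µM they were 396, 383 and 404 CPM with DEX and 469.8, 592 and 459 CPM without DEX, where 592 CPM belongs to the library that stood apart. No library with DEX reached the lowest one without it, 459 CPM. Mef2a fell 1.16-fold with DEX alone (log2 fold change -0.22 ± 0.07, adjusted p = 0.021) and on 10 µM (-0.22 ± 0.07, adjusted p = 0.021), and 1.29-fold on 20 µM (-0.36 ± 0.07, adjusted p = 0.00041). The first call was lost without DEX replicate 1 or control replicate 3 (both -0.18, adjusted p = 0.097) and without DEX replicate 3 (-0.22, adjusted p = 0.05). The second was lost without DEX plus 10 µM replicate 1 (-0.19, adjusted p = 0.087) or 2 (-0.21, adjusted p = 0.061) and without 10 µM replicate 3 (-0.20, adjusted p = 0.065). The call on 20 µM held in every alternative, also without the library that stood apart, but its larger size rests in part on that library.

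Mef2c, the MEF2 gene with the most counts here, ranged from 628 to 675 CPM in the 9 libraries with DEX and from 677 to 914 CPM in the 9 without it. It was at 643, 671 and 632 CPM with DEX and 697, 677 and 685 CPM in control, which do not overlap but gave an adjusted p of 0.43 (log2 fold change -0.08, 95% interval -0.24 to 0.08). On 10 µM ginsenoside Rc the groups did not overlap either (-0.15, 95% interval -0.31 to 0.02, adjusted p = 0.14). That difference passed with the library that stood apart left out of the model (-0.14, adjusted p = 0.003). It also passed with only the groups compared (-0.15, adjusted p = 0.0047) and without composition scaling (-0.22, adjusted p = 0.015). On 20 µM ginsenoside Rc it was at 659, 628 and 675 CPM with DEX and 707, 914 and 683 CPM without DEX. It passed the test there (-0.23, adjusted p = 0.019), where the value of 914 CPM belongs to the library that stood apart. Without that library the difference was -0.09 (adjusted p = 0.1), without DEX plus 20 µM replicate 2 it was -0.20 (adjusted p = 0.076), and with only these groups in the model it was -0.24 (adjusted p = 0.16). Mef2d was at 383 to 425 CPM in the 9 libraries with DEX and 385 to 559 CPM in the 9 without it, and passed in none of the 3 comparisons (log2 fold changes -0.01, 0.00 and -0.16, 95% intervals within -0.37 and 0.22). The difference on 20 µM passed without 20 µM replicate 1 (-0.25, adjusted p = 0.044) or 3 (-0.26, adjusted p = 0.04). Both of these fits keep the library that stood apart, which had the 559 CPM. As a share of the 3 genes' CPM per kb of all exons joined, Mef2a made up 20.5% ± 0.546 with DEX and 22.7% ± 0.503 in control (SD, n = 3 each). With the longest transcript as the length, Mef2a stood at 87.5 CPM per kb in control, above Mef2d at 76.3. The size of this share therefore depends on the length used, which its SD does not cover.

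Pax7, the stem cell factor, fell to about the same low level in all 3 groups with DEX. It was at 18.6, 20.0 and 19.9 CPM in the DEX libraries, against 38.2, 38.2 and 36.4 CPM in the control libraries. On 10 µM ginsenoside Rc it was at 19.2, 18.8 and 18.3 CPM with DEX and 39.6, 39.4 and 39.0 CPM without DEX. On 20 µM it was at 17.0, 19.1 and 17.5 CPM with DEX and 34.8, 43.2 and 39.1 CPM without DEX. The libraries with and without DEX are far apart in each case. Pax7 fell 1.93-fold with DEX alone (log2 fold change -0.95 ± 0.07, adjusted p = 1.6e-09), 2.10-fold on 10 µM (-1.07 ± 0.07, adjusted p = 3.2e-10) and 2.18-fold on 20 µM (-1.12 ± 0.07, adjusted p = 1.5e-10).

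Of 18 other satellite cell and progenitor markers, 15 were tested, of which 2 rose, 9 fell and 4 did not pass with DEX alone (20.6% of all genes higher and 23.2% lower), with a median log2 fold change of -1.03 over the 15. Calcr and Chrdl2, which mark quiescent satellite cells, were at 0 in all libraries, and Pax3 was under the filter. Fgfr4, a fibroblast growth factor receptor of myogenic progenitors, had the smallest adjusted p among those that fell, at 8.69 ± 0.291 CPM with DEX and 24.0 ± 1.14 CPM in control (log2 fold change -1.47 ± 0.06, adjusted p = 2.2e-12). Sdc4, a heparan sulphate proteoglycan of satellite cells, went the other way, at 172 ± 9.94 CPM with DEX and 132 ± 2.52 CPM in control (0.37 ± 0.07, adjusted p = 0.0004). All 8 cycling-cell markers fell, with a median of -2.85. Myf5, which is also expressed in satellite cells and myoblasts, rose in the same libraries. The part of a changed number of undifferentiated cells in the Pax7 result was not tested.

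Vgll2 fell with DEX alone. It was at 8.07, 7.62 and 9.07 CPM in the DEX libraries, against 13.6, 13.4 and 13.6 CPM in the control libraries, with no overlap (1.64-fold lower, log2 fold change -0.71 ± 0.17, adjusted p = 0.0027). On 10 µM ginsenoside Rc it was at 8.67, 9.69 and 10.6 CPM with DEX and 13.9, 12.0 and 11.9 CPM without DEX, again with no overlap but short of the threshold (-0.38 ± 0.17, adjusted p = 0.084). On 20 µM it was at 11.5, 11.0 and 12.2 CPM with DEX and 11.6, 20.4 and 10.8 CPM without DEX, and the groups overlapped (-0.30 ± 0.17, adjusted p = 0.16). The value of 20.4 CPM again belongs to the library that stood apart. Without that library the DEX effect on 20 µM was 0.05 (adjusted p = 0.69) and that on 10 µM was -0.38 (adjusted p = 0.00032). With 20 µM replicate 3 left out instead, the DEX effect on 20 µM was -0.46 (adjusted p = 0.024). The size of the effect on 20 µM thus depends on single libraries.

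Ginsenoside Rc under DEX asks whether the ginsenoside, given before and with DEX, alters the DEX-treated state. None of the 9 genes passed at 10 µM or at 20 µM (edgeR's quasi-likelihood test, adjusted p under 0.05), where 0.0259% and 0.369% of all genes did. At an unadjusted p under 0.05 there was 1 of the 9 at each dose (3.85% of all genes at 10 µM and 8.75% at 20 µM), and DESeq2 called 0 at each. Both comparisons use the same DEX libraries, so their values are not independent.

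Vgll2 was the gene with p under 0.05 at 20 µM. Along the dose its mean level was 8.25 ± 0.743 CPM with DEX alone, 9.65 ± 0.953 CPM with DEX plus 10 µM and 11.6 ± 0.575 CPM with DEX plus 20 µM (SD, n = 3 each). The libraries with DEX plus 20 µM did not overlap those with DEX alone, as for 14.9% of all genes. The difference between DEX plus 20 µM and DEX alone was 0.49 on the log2 scale (95% interval 0.12 to 0.85), or 1.40-fold, with an adjusted p of 0.32. None of the libraries of this comparison is the one that stood apart, but that library enters the shared estimate of the spread. With it left out of the model the same difference of 0.49 had an adjusted p of 0.0019, and with only the 2 groups compared in the model it was 0.48 with an adjusted p of 0.028. Over the other alternatives the adjusted p was 0.17 to 0.78. At 20 µM without DEX, Vgll2 was at 11.6, 20.4 and 10.8 CPM, against 13.6, 13.4 and 13.6 CPM in control (0.07, 95% interval -0.28 to 0.42), and without the library that stood apart the difference was -0.27 (adjusted p = 0.26). The difference between the DEX effect on 20 µM and without ginsenoside was 0.42 (95% interval -0.09 to 0.93, adjusted p = 0.88), and 0.76 (adjusted p = 0.025) without that library, which leaves 2 libraries in its group.

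Myf6 was the gene with p under 0.05 at 10 µM. Its libraries with DEX plus 10 µM (13.9, 13.2 and 12.4 CPM) all lay above those with DEX alone (9.74, 10.4 and 11.2 CPM), as for 10.8% of all genes that did not overlap in either direction. The difference was 0.33 ± 0.10 (1.26-fold, 95% interval 0.13 to 0.53), with an adjusted p of 0.78. At 20 µM Myf6 averaged 11.8 ± 1.58 CPM, with a difference from DEX alone of 0.17 (95% interval -0.03 to 0.38, adjusted p = 0.71). The DEX effect on Myf6 was larger by 0.44 on 20 µM than without ginsenoside (95% interval 0.09 to 0.79), with an adjusted p of 0.88.

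For the other 7 genes, the differences of DEX plus ginsenoside from DEX alone lay between -0.18 and 0.08 at either dose. Pax7 averaged 19.5 ± 0.793 CPM with DEX alone, 18.8 ± 0.470 CPM with DEX plus 10 µM and 17.9 ± 1.10 CPM with DEX plus 20 µM (SD, n = 3 each). The 95% intervals of its differences, -0.20 to 0.09 at 10 µM and -0.27 to 0.02 at 20 µM, do not reach the 0.95 by which it fell under DEX. Myf5 averaged 51.9 ± 6.77 CPM with DEX alone, 54.7 ± 4.82 CPM with DEX plus 10 µM (95% interval of the log2 difference -0.12 to 0.27) and 51.4 ± 4.90 CPM with DEX plus 20 µM (-0.21 to 0.18). Mef2a averaged 417 ± 16.2 CPM with DEX alone, 407 ± 13.9 CPM with DEX plus 10 µM and 394 ± 10.5 CPM with DEX plus 20 µM. In these 3 genes every library with DEX plus ginsenoside lay within the range of the DEX libraries or beyond it on the side away from control.

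**Figure D3:**
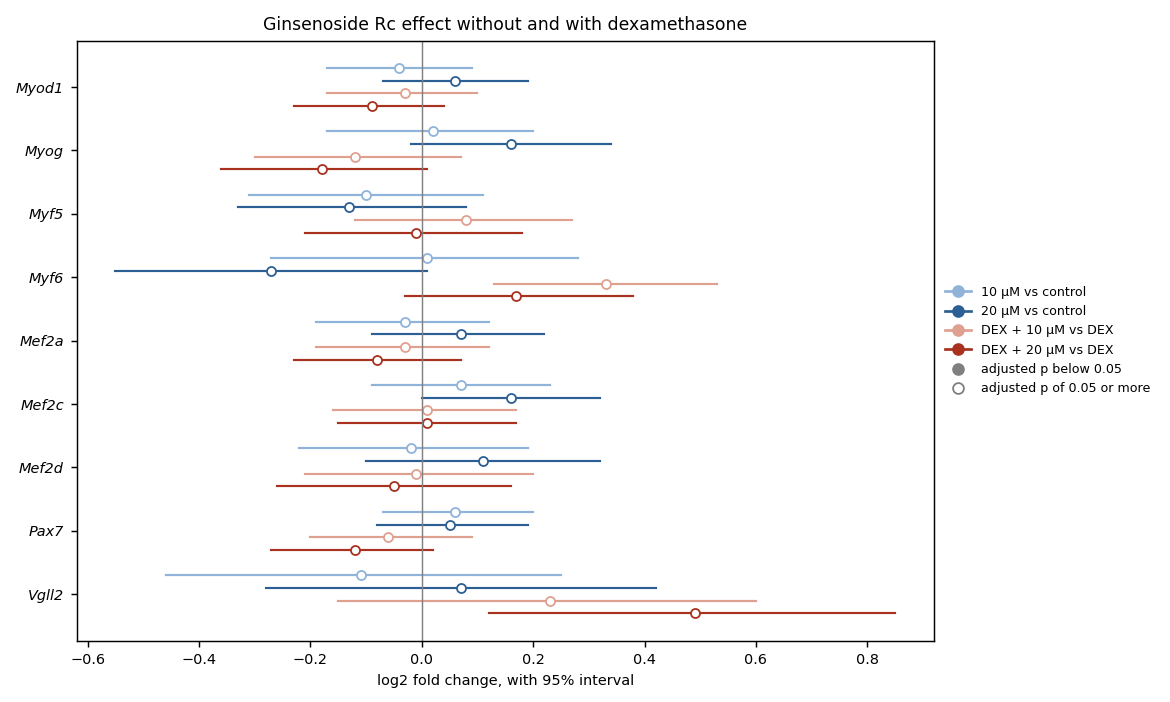
Log2 fold change of ginsenoside Rc for each of the 9 genes (points, with 95% intervals) at 10 µM and 20 µM, under DEX against DEX alone and without DEX against control. None of the points had an adjusted p under 0.05, and the intervals of Vgll2 at 20 µM (0.12 to 0.85) and Myf6 at 10 µM (0.13 to 0.53) under DEX lie above 0.

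Without DEX, none of the 9 genes passed against control at 10 µM or at 20 µM, where 0.00648% and 0.104% of all genes did, and none was called by DESeq2. At an unadjusted p under 0.05 there were also 0 of the 9 at each dose (2.55% of all genes at 10 µM and 9.29% at 20 µM). Both doses were set against the same control libraries. At 10 µM, Mef2c (724, 732 and 706 CPM against 697, 677 and 685 CPM in control) and Pax7 (39.6, 39.4 and 39.0 CPM against 38.2, 38.2 and 36.4 CPM in control) did not overlap with control, as for 12.1% of all genes, and both differences were under 0.1 on the log2 scale. At 20 µM only Myog did not overlap, at 767, 814 and 735 CPM against 659, 727 and 688 CPM in control (11.7% of all genes; log2 fold change 0.16, 95% interval -0.02 to 0.34, adjusted p = 0.58). Replicate 2 at 20 µM was the highest of all 18 libraries for Mef2a, Mef2c, Mef2d, Vgll2, Myog and Pax7. None of the 9 genes had an interaction of DEX with either dose at an adjusted p under 0.05 by edgeR or DESeq2, and by edgeR neither had any of the 15436 genes (0%). At an unadjusted p under 0.05 there were 0 of the 9 at 10 µM (2.12% of all genes) and 2 of the 9, Myog and Myf6, at 20 µM (5.28% of all genes).

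The E proteins that pair with the MyoD family and other partners (20 genes, all tested) gave 10 higher and 4 lower with DEX alone. Of all genes, 20.6% were higher and 23.2% lower. The median log2 fold change of the list was 0.20. Mapk14, the p38 kinase that activates MyoD-dependent transcription, was at 113 ± 3.62 CPM with DEX and 69.8 ± 0.862 CPM in control (log2 fold change 0.69 ± 0.05, adjusted p = 6.5e-09). Cdon, a cell surface receptor that promotes p38 signalling in myoblasts, fell to 290.1 ± 24.9 CPM with DEX, against 658 ± 13.6 CPM in control (-1.18 ± 0.07, adjusted p = 3.5e-10). It was the gene of these lists that passed in a ginsenoside comparison, at 221 ± 18.1 CPM with DEX plus 20 µM and 290.1 ± 24.9 CPM with DEX alone (-0.39 ± 0.07, adjusted p = 0.025). The 3 E protein genes, named after their values were seen, all fell with DEX, with log2 fold changes of -0.42 for Tcf3, -0.48 for Tcf4 and -0.29 for Tcf12.

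The inhibitors of the MyoD family (18 of 20 tested) gave 5 higher and 9 lower (20.6% and 23.2% of all genes), with a median of -0.27. Twist2, a helix-loop-helix repressor of MyoD, was at 9.11 ± 0.773 CPM with DEX and 4.45 ± 0.403 CPM in control (log2 fold change 1.03 ± 0.08, adjusted p = 1.1e-08). Hes1, the Notch effector that represses Myod1, was at 20.2 ± 0.346 CPM with DEX and 44.2 ± 2.41 CPM in control (-1.13 ± 0.08, adjusted p = 1.4e-09). Of the 4 Id genes, which sequester E proteins and are named after their values were seen, Id1 (0.77), Id3 (1.24) and Id4 (1.19, at under 1 CPM in both groups) were higher and Id2 (-0.82) was lower.

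Regulators and partners of MEF2 (20 of 21 tested) gave 6 higher and 4 lower (20.6% and 23.2% of all genes), with a median of 0.10. Sik1, a kinase that phosphorylates class II histone deacetylases and so relieves MEF2 of them, was at 277 ± 6.56 CPM with DEX and 162 ± 3.85 CPM in control (log2 fold change 0.77 ± 0.07, adjusted p = 9.8e-08). Camk2g, a calcium-dependent kinase of the same deacetylases, was at 137 ± 0.522 CPM with DEX and 153 ± 1.89 CPM in control (-0.16 ± 0.04, adjusted p = 0.0015). Of the vestigial-like and TEAD genes (8 of 9 tested, with Vgll1 under the filter), 2 rose and 3 fell (20.6% and 23.2% of all genes), with a median of -0.11. Tead4, a DNA-binding partner of the vestigial-like proteins in myoblasts, was at 131 ± 1.52 CPM with DEX and 94.4 ± 1.42 CPM in control (0.47 ± 0.05, adjusted p = 1.2e-07), and its relative Tead3 was at 41.7 ± 1.16 CPM with DEX and 51.6 ± 2.28 CPM in control (-0.31 ± 0.06, adjusted p = 0.00016).

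Muscle genes that the MyoD family and MEF2 factors are known to switch on (32, all tested) gave 16 higher and 8 lower, with a median of 0.18. Smpx, a small sarcomere-associated protein of striated muscle, was at 362 ± 6.02 CPM with DEX and 173 ± 3.58 CPM in control (log2 fold change 1.06 ± 0.07, adjusted p = 1.2e-09). Myh3, the embryonic myosin heavy chain of newly formed myotubes, was at 2496 ± 228 CPM with DEX and 4664 ± 61.6 CPM in control (-0.90 ± 0.08, adjusted p = 7.2e-08). Against the background of 20.6% of all genes higher and 23.2% lower, the targets had more members higher, which is a description of a list chosen with results of these data known. Without composition scaling of the libraries the targets gave 12 higher and 9 lower.

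On 10 µM ginsenoside Rc the DEX counts, higher and lower, were 11 and 4 for the partners, 4 and 8 for the inhibitors, 6 and 4 for the MEF2 regulators, 2 and 3 for the vestigial-like and TEAD genes, 13 and 8 for the targets and 2 and 10 for the progenitor markers, where 21.1% of all genes were higher and 23.0% lower. On 20 µM they were 10 and 7, 5 and 10, 6 and 7, 2 and 4, 15 and 10, and 2 and 10 in the same order, where 23.5% of all genes were higher and 25.4% lower. Apart from Cdon at 20 µM under DEX, no gene of the 6 lists passed in a ginsenoside comparison or an interaction.

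**Figure D4:**
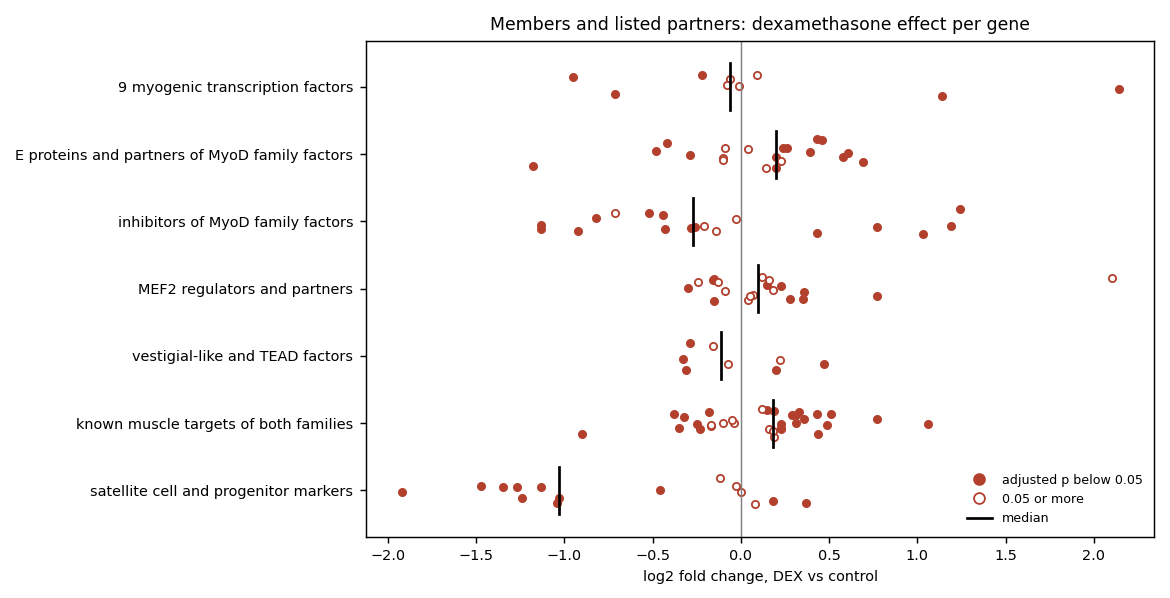
Log2 fold change of DEX alone against control for every tested gene of the 6 lists and for the 9 genes themselves (points, filled where the adjusted p was under 0.05), with a bar at each list's median. The medians run from -1.03 for the satellite cell and progenitor markers to 0.20 for the E proteins and partners.

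For each of the 5 members that passed under DEX alone, the 3 genes closest to it over the 18 libraries were found among 11786 genes with a mean log2 CPM of at least 1, by the root mean square difference of log2 CPM centred on the control mean. For Myf6 they were Mertk (0.166), Glul (0.189) and Il6ra (0.190), and for Myf5 they were Rasa3 (0.0920), Inhbb (0.112) and Trib1 (0.118). Those of Pax7 were Pcdh18 (0.0894), Adgra3 (0.0903) and Plekhg5 (0.0903). Mef2a had Acbd3 (0.0369), Nacc1 (0.0374) and Etv6 (0.0377), with the small distances that go with a small change, and Vgll2 had Nacad (0.179), Stk3 (0.181) and Tnfrsf22 (0.186). These are the most similar patterns in 18 libraries that differ mainly by DEX, and say nothing of shared function or control.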

How the data were processed

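Poly-A RNA from 18 C2C12 myotube libraries (strand-directional kit, 100 bp paired-end reads, per the labels' protocols) was trimmed with Trim Galore 0.6.5, checked with FastQC 0.11.9, aligned with STAR 2.7.3a and quantified with RSEM 1.3.3 on GRCm38, per the submitters' processing notes. For the annotation release and strand setting, the value is not given in the sources used here. The authors deposited expected counts per gene, 48795 IDs in 1 table, with 9.27% of values not whole. Libraries were matched to groups by the batch and number in their titles. Of the IDs, 48349 were named from GENCODE vM21, and 446 unnamed IDs, with 0.038% of counts, stayed in by ID.

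Counts were rounded and tested with edgeR 4.0.16 (R 4.3.3; TMM scaling, filterByExpr, robust quasi-likelihood F test) in 1 model with a mean per group over all 18 libraries. Benjamini-Hochberg adjustment ran over 15436 genes with a threshold of 0.05. There were 9 comparisons, of which the 2 interactions compare the DEX effect with and without ginsenoside. SE is the size of the log2 fold change over the square root of F. CPM are TMM-scaled. Alternatives were median-ratio scaling, no composition scaling, no filter, DESeq2 1.42.0, a replicate block, only the groups compared, the model without 20 µM replicate 2, and each library left out in turn. Depth was 32.4 to 45.4 M expected counts, and the counts' precision covers counting error only.

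The 9 genes are always named. From each other list the text names the gene with the smallest adjusted p for DEX against control in each direction, and any gene that passed in a ginsenoside comparison or interaction. The members and lists were chosen with earlier results of these data known.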

Additional observations from a re-analysis of the deposited data

How the results depend on the processing

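Of 15 calls on the 9 genes, 180 of 189 values under alternatives kept direction and call and 9 were no longer called, all of Mef2a or Mef2c, and none reversed. Of 66 values that were not called, 15 of 945 alternatives were and 51 had the other sign without being called. For DEX plus 10 µM against 10 µM, 4 members passed, and 7 did without composition scaling and 7 with only the groups compared, where Myog, Mef2c and Vgll2 also passed. For DEX plus 20 µM against DEX, 0 passed, and 1 (Vgll2) did with only the groups compared and 1 without 20 µM replicate 2. With each library left out in turn, the members called were 4 to 5 for DEX against control, 3 to 5 for the DEX effect on 10 µM, 5 to 8 on 20 µM, 0 to 1 for the interaction at 20 µM and 0 in the other comparisons. The causes of these changes were not tested.

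Counts over all genes that moved by more than 1.5 times were those of the ginsenoside comparisons. At 10 µM and 20 µM against control, and at 10 µM and 20 µM with DEX against DEX alone, they were 1, 16, 4 and 57 genes in the fit reported. They were 5, 110, 17 and 258 with DESeq2, 3, 44, 15 and 341 without 20 µM replicate 2, and 2 and 28 (without DEX) and 95 (20 µM with DEX) with no filter. With 1 library of the groups compared left out in turn they were 0, 5 to 44, 0 to 1 and 6 to 224, with the 5 without control replicate 1, the 44 without 20 µM replicate 2, the 6 without DEX plus 20 µM replicate 2 and the 224 without DEX plus 20 µM replicate 3. With only the groups compared they were 8 and 0 without DEX and 1 at 10 µM with DEX. The interaction at 20 µM had 0 genes in the fit reported, 1 with DESeq2, 1 with no filter and 2 without 20 µM replicate 2. Without composition scaling, DEX against control gave 2368 higher and 4392 lower, against 3176 higher and 3578 lower in the fit reported.

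Same-numbered libraries deviated from their group means with correlations of -0.20 to 0.15, so the numbers were not taken to pair libraries. With the replicate number as a block, 5, 4 and 6 members were called for DEX without ginsenoside, on 10 µM and on 20 µM and 0 in the other 6 comparisons, and 6652, 6743 and 7424 genes for the 3 DEX comparisons. Of all genes, the block left 1 call for DEX plus 10 µM against DEX. The order of the MEF2 genes by level changed with the length used, and the genes most like each member did not with another prior count.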
